A study of Mus musculus with 13 samples.

Results

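AGO binding was measured on the transcripts of 6 genes grouped here as astrocyte genes: Glul, Glud1, Aldoc, Gja1, Sparcl1 and Dio2. Members were all AGO peaks that the deposited peak table assigns to one of these gene names, which gave 83 peaks with 2256 tags, of 18284 peaks with 395152 tags in the table. AGO CLIP crosslinks RNA to Argonaute (AGO) proteins with ultraviolet light and sequences the RNA fragments held by AGO, called tags here. The libraries came from cortex of wild-type C57BL6 mice aged 7 to 8 weeks. In 5 libraries the tissue was the ipsilateral hemisphere, ischemic after filament occlusion of the middle cerebral artery (MCAO) for 35 min and 3 h of recovery. The contralateral hemisphere of MCAO mice gave 4 libraries, and sham mice, whose arteries were exposed with no filament inserted, gave 4. All groups had isoflurane anesthesia. MCAO combined the filament with ligation of the common carotid artery, which the study's text does not state for sham mice. Each replicate number marks a separate day of surgery and a separate AGO CLIP preparation.

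AGO carries a microRNA (miRNA) whose bases 2 to 8, the seed, pair with target RNA, usually in the 3'UTR, and binding commonly lowers the stability or translation of the target. Astrocytes clear glutamate released at synapses. Glul encodes glutamine synthetase, which turns that glutamate into glutamine, and Glud1 encodes glutamate dehydrogenase, which oxidizes it in mitochondria. Aldoc encodes the brain form of the glycolytic enzyme aldolase, Gja1 the gap junction protein connexin 43, Sparcl1 the secreted matrix protein hevin, and Dio2 the deiodinase that makes active thyroid hormone for neighbouring cells.

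Peak tags per library ranged from 3780 to 71027, tags in exonic peaks (3'UTR, coding sequence, 5'UTR and unclassified exon) from 2871 to 29039, and tags on the members from 34 to 327. A count of 0 tags therefore allows up to 1.03 tags per 10000 exonic tags in the deepest library and up to 10.4 in the shallowest, ipsilateral replicate 5. The 3 libraries of replicate 1 had 55.9% to 67.1% of their peak tags in introns or between genes, against 22.8% to 50.7% in the other 10. The library labelled ipsilateral replicate 1 had 0 tags on Hspa1b, an inducible heat shock gene, where ipsilateral replicates 2 to 5 had 73, 32, 16 and 6, so results are also given without it where it moved them. Hspa1b tags can be shared with the near-identical copy Hspa1a. Tissue was whole cortex: of 30 astrocyte marker symbols (Plpp3 and Ppap2b name 1 gene) 21 had exonic tags, and Gfap and Aldh1l1 had 0; of 20 neuron symbols 16 had tags. Tags count AGO-bound fragments from all cells of the cortex. Fewer astrocytes, less RNA per astrocyte, less AGO per RNA and a change in tags from other cell types therefore cannot be told apart.

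Of the 83 member peaks, 33 held a seed match to at least 1 of the 40 miRNA families searched, and 8 held a match of 8 letters, which pairs with seed bases 2 to 8 and has A after it. These 8 sites are shown because they are the longest matches found, with the guide miRNA (RefSeq) first and its seed in capitals, then 30 bases of the transcript strand (GENCODE M21, GRCm38, the assembly of mm10) ending in the site in capitals.
miR-29a-3p: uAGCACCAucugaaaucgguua
Glul CDS, chr1:153904635-153904664, plus strand: ttccgcaaagaccccaacaagcTGGTGCTA
Glud1 CDS, chr14:34335327-34335356, plus strand: ctatgagatatttacatcgtttTGGTGCTA
miR-338-3p: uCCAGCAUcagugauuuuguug
Glul CDS, chr1:153907076-153907105, plus strand: gctcactaccgggcctgcttgtATGCTGGA
miR-24-3p: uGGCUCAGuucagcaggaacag
Aldoc CDS, chr11:78324509-78324628, plus strand, intron left out: cgtaggcagcatggccaaaaggCTGAGCCA
miR-30a-5p: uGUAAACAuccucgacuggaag
Gja1 3'UTR, chr10:56389650-56389679, plus strand: tttgtggtgtgggccaacgtggTGTTTACA
Dio2 3'UTR, chr12:90726729-90726758, minus strand: taaagatttctctcataggataTGTTTACA
miR-181a-5p: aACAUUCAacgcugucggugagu
Dio2 3'UTR, chr12:90726518-90726547, minus strand: gtaacctggacaatgacttcctTGAATGTA
miR-221-3p: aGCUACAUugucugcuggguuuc
Sparcl1 3'UTR, chr5:104079451-104079480, minus strand: agccatgacactatacattcatATGTAGCA

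Glul and Glud1 thus both carried the 8-letter miR-29 match inside their coding sequence. For Glud1 it lay in the most covered of 3 peaks (chr14:34335323-34335402, 39 tags), and for Glul in the peak ranked 7 of 16 (chr1:153904599-153904678, 43 tags). A miR-29 match (TGGTGCT, or its last 6 letters followed by A) was found under 2.26% of all searched coding sequence peaks. The miR-30 match (TGTTTAC, or its last 6 letters followed by A) shared by Gja1 and Dio2 was found under 2.32% of all searched 3'UTR peaks, and the miR-221 match of Sparcl1 (ATGTAGC, or its last 6 letters followed by A) under 1.18%. These shares count matches of 7 as well as 8 letters, so they are not shares of the 8-letter match alone. Only the transcript strand was searched, and sites of different families can overlap. Sharing a family was not particular to these pairs: matches of 7 letters to miR-129 lay in 3 members. A miR-129 match was found under 4.25% of all searched 3'UTR peaks and 2.36% of coding sequence peaks. Its guide, miR-129-5p, was not among the deposited miRNA counts described below. Matches of 7 or 8 letters to miR-23a, miR-125b, miR-128 and miR-338, among others, lay in 2 members. Dio2 peaks also held 5 matches of 7 letters to miR-138 (CACCAGC, or ACCAGCA), counted by peak, of which 2 lay in the peak at chr12:90724882-90724961. The match ACCAGCA in that peak also lay under an overlapping peak (chr12:90724825-90724904) and was counted in both. A miR-138 match was found under 1.11% of all searched 3'UTR peaks and 2.56% of coding sequence peaks, and Dio2 had 28 peaks. Of the members' 3'UTR peaks 39.6% held at least 1 match of 7 or 8 letters, against 43.1% of all 3'UTR peaks searched, and 44.0% of their coding sequence peaks, against 45.7% of all. Matches of 8 letters were under 7.55% of member 3'UTR peaks (4 of 53), against 13.4% of all 3'UTR peaks, and under 16.0% of member coding sequence peaks (4 of 25), against 14.8% of all. The most covered Glul peak (chr1:153908482-153908561, 129 tags) held none of the matches searched.

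Tags per mature miRNA were deposited as well, by a counting rule that the sources used here do not give. That table lists 1705 miRNAs with 50 to 5175 tags each over the 13 libraries, with a median of 172. Of the 40 families searched above, 35 had their guide among these miRNAs. Among miRNAs known to be abundant in brain, miR-26a-5p had 5118 tags and miR-124-3p 4707, but let-7a-5p had 143. The guides printed above had 878 (miR-30a-5p), 476 (miR-29a-3p), 277 (miR-181a-5p), 227 (miR-221-3p), 104 (miR-338-3p) and 52 tags (miR-24-3p), and were not compared between groups here.

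Per kilobase of transcript, Glul (mean 11.9 tags per 10000 exonic tags per kb over the 13 libraries) and Sparcl1 (11.5) stood above Gja1 (4.72), Dio2 (3.17), Aldoc (2.90) and Glud1 (1.11). Neighbours in that order were not all separable: Glul was above Sparcl1 in 7 of 13 libraries and Dio2 above Aldoc in 5, whereas Sparcl1 was above Gja1 in 12, Gja1 above Dio2 in 10 and Aldoc above Glud1 in all 13. In the 3'UTR lay 54 of the 83 peaks, in coding sequence 25 and in the 5'UTR 4; the 5'UTR peaks were all in Sparcl1. The 3'UTR held 64.4% of member tags, against 68.3% of all exonic tags. That figure hides a division among the members: the 3'UTR held 85.0% of Dio2 tags, 80.1% of Glul, 63.9% of Gja1 and 49.3% of Sparcl1 tags, but 30.8% of Glud1 and 27.8% of Aldoc tags, whose AGO tags lay mostly on coding sequence. Of the 83 peaks, 30 overlapped another peak (36.1%; 24.9% of all exonic peaks), so some tags may be counted in both. The 4 Sparcl1 5'UTR peaks (82 tags) lie over the antisense gene Gm26703, and without a strand in the table the tags of the pair cannot be told apart.

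**Figure D1:**
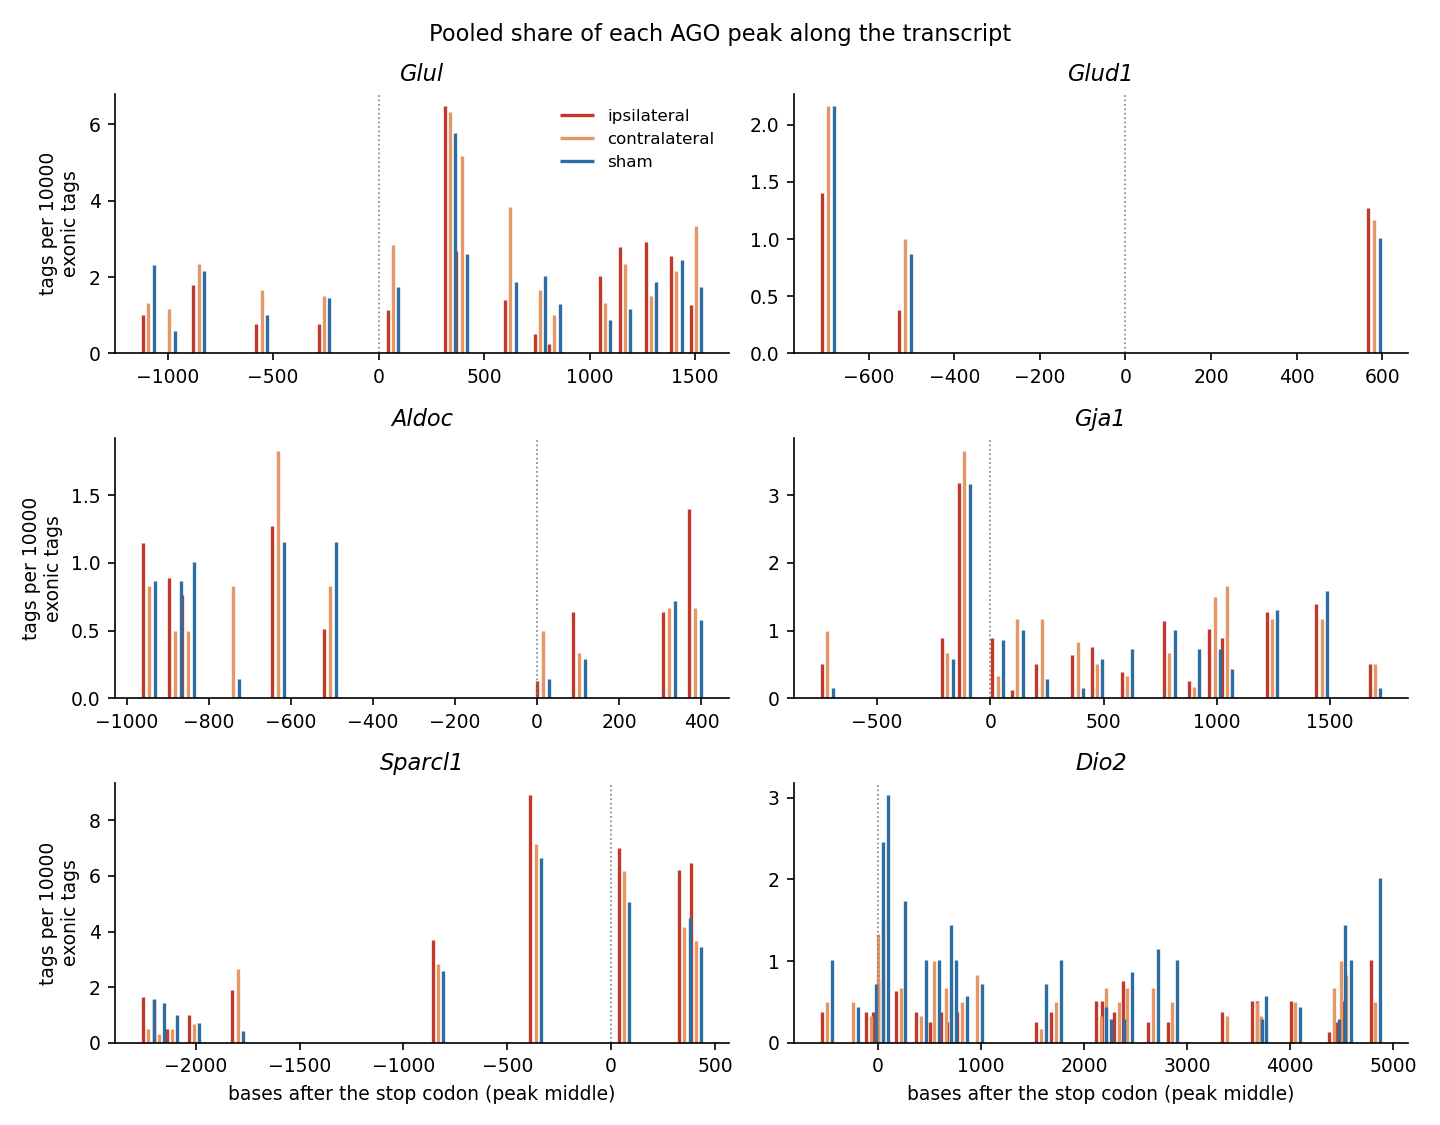
Pooled share of every member peak (tags per 10000 exonic tags, vertical axis, scaled per gene) against the distance of its middle from the stop codon (bases, horizontal axis; dotted line at the stop codon), with ipsilateral, contralateral and sham bars drawn side by side. Dio2 peaks run over a 3'UTR of 4860 bases, with the tallest sham bars next to the stop codon, while Aldoc and Glud1 have most of their bars inside the coding sequence.

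Within genes the tags were unevenly spread. In Glul, glutamine synthetase, 129 of 674 tags lay in the peak named above and 70 in the one that overlaps it (chr1:153908537-153908616). In Gja1, connexin 43, 69 of 305 tags lay in 1 coding sequence peak near the stop codon (chr10:56388541-56388620), which held 7-letter matches to miR-15a, miR-129 and miR-338. In Sparcl1, hevin, 159 of 668 tags lay in a coding sequence peak (chr5:104087014-104087093) with no match and 127 in the 3'UTR peak with the miR-221 match (chr5:104079446-104079525). Dio2 was the most spread, with 28 peaks, none above 36 tags, and Aldoc had at most 29 tags in a peak (chr11:78325091-78325170).

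Compared with sham cortex, ipsilateral cortex showed no member whose tags passed the test across genes, and the member with the lowest p was Dio2, with a fitted level 0.492 times that of sham. Dio2, the deiodinase gene, had 9.93, 10.3, 11.4, 16.1 and 20.9 tags per 10000 exonic tags in ipsilateral replicates 1 to 5, against 31.2, 20.5, 14.7 and 32.0 in sham replicates 1, 2, 3 and 5. The 3 lowest of these 9 libraries were all ipsilateral and the 2 highest were sham, but sham replicates 2 and 3, at 20.5 and 14.7, lay inside the ipsilateral range. The mean was 13.7 ± 4.69 in ipsilateral (SD, n = 5) and 24.6 ± 8.41 in sham libraries (SD, n = 4). edgeR's quasi-likelihood test, run on the tags of all exonic peaks of a gene together, estimated -1.02 on the log2 scale (SE 0.27), rank 5 from the lowest of 444 genes tested, with an unadjusted p of 0.00147 and a Benjamini-Hochberg adjusted p of 0.137. Of the 444 genes, 0.225% were called (1 gene, Hspa1b), and of the 6 members 0, with Glud1 not tested because it did not pass the filter on low counts; 46 genes had an unadjusted p under 0.05, and DESeq2 called 0.45% of genes (2) and no member. Exonic shares separated the groups without overlap, ipsilateral lower, in 2.25% of the 444 genes, and Dio2 was not among them. The exact permutation test of the Dio2 share gave p = 0.0794 (two-sided; adjusted over 445 genes 0.543). Without ipsilateral replicate 1 the edgeR call of Dio2 was made (log2 fold change -1.11, adjusted p = 0.0406). In that fit 10 of 422 genes tested were called, Dio2 among them. The Dio2 call was made in no other setting tried, over which the log2 fold change ran from -1.23 to -0.80 and the adjusted p from 0.0578 upward.

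**Figure D2:**
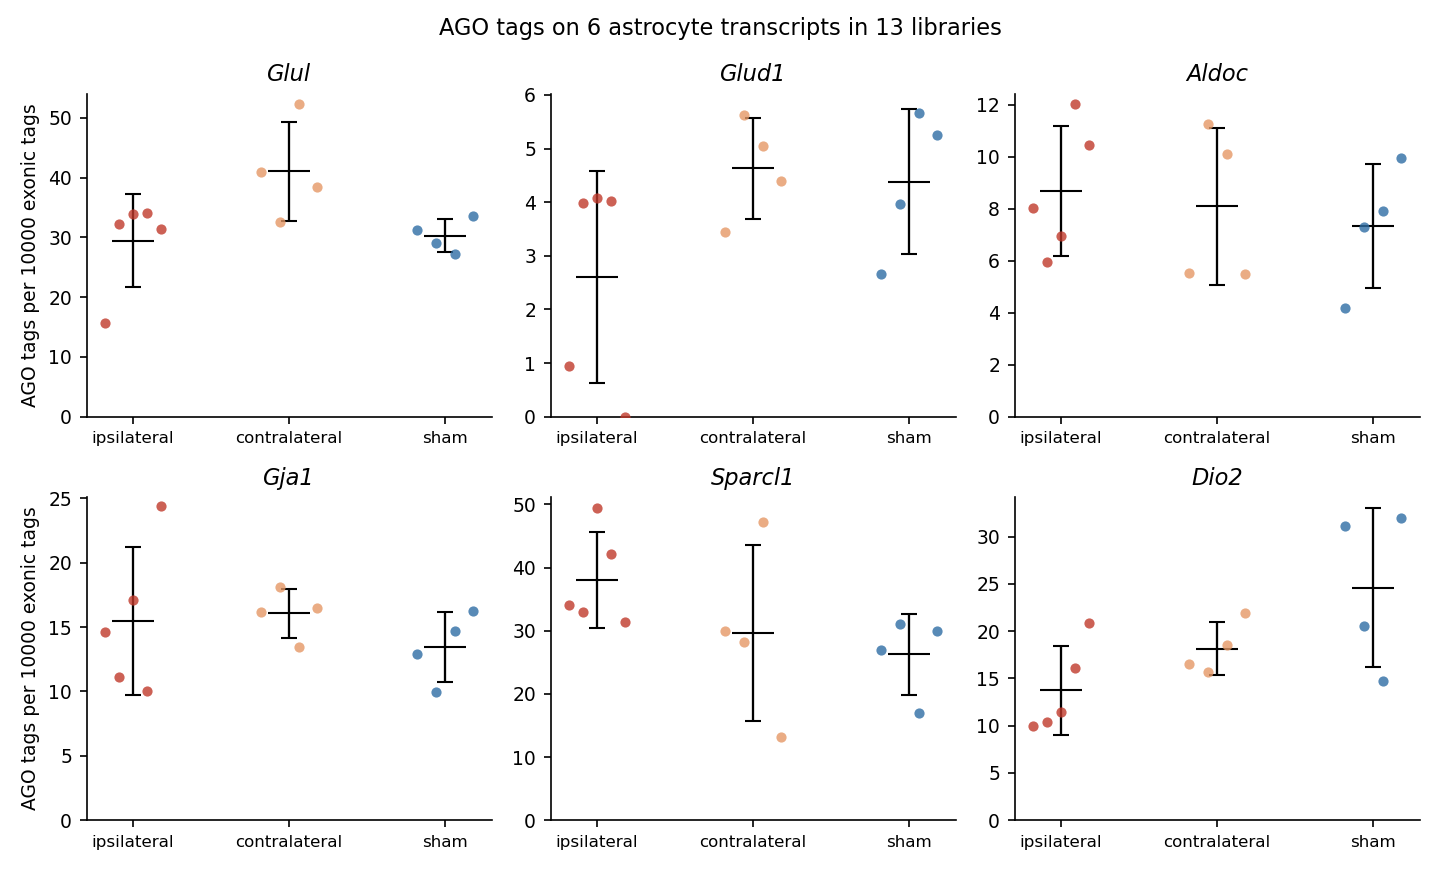
AGO tags per 10000 exonic tags (vertical axis) for each of the 6 genes, with 1 point per library in ipsilateral (n = 5), contralateral (n = 4) and sham (n = 4) groups and the mean ± SD in black. For Dio2 the ipsilateral mean of 13.7 is the lowest and the sham mean of 24.6 the highest; the ipsilateral Sparcl1 points all lie above the sham points; 1 ipsilateral Glul point, at 15.6, lies apart from the other 4.

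Sparcl1 leaned the other way. It had 34.0, 33.0, 49.4, 42.1 and 31.3 tags per 10000 exonic tags in ipsilateral replicates 1 to 5, against 27.0, 31.1, 17.0 and 29.9 in sham replicates 1, 2, 3 and 5. All ipsilateral libraries lay above all sham libraries, the closest pair being 31.3, on 9 tags, and 31.1, on 47; such a separation upward was seen in 0.901% of the 444 genes. The mean was 38.0 ± 7.60 in ipsilateral (SD, n = 5) and 26.2 ± 6.41 in sham libraries (SD, n = 4), and the edgeR log2 fold change was 0.54 (SE 0.28, adjusted p = 0.518). The exact permutation p of 0.0159 is the smallest that 5 against 4 libraries can give, and adjusted over 445 genes it was 0.471. The Sparcl1 groups overlapped per 10000 of all peak tags, and also per 10000 3'UTR tags (19.9 to 34.8 in ipsilateral and 12.1 to 22.9 in sham libraries) and with overlapping peaks dropped (17.4 to 42.8 in ipsilateral and 13.6 to 27.3 in sham libraries). Of its 10 peaks 9 had a higher pooled ipsilateral share (90.0%; 49.0% of all exonic peaks), but these peaks make up the same gene sum and 5 overlap another, so the count adds no separate support. Its 3'UTR tags averaged 21.3 ± 4.08 in ipsilateral and 11.9 ± 3.46 in sham libraries, with ranges that overlapped.

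Glul, Glud1, Aldoc and Gja1 had ranges that overlapped between ipsilateral and sham libraries. Glul had a mean share of 29.4 ± 7.82 in ipsilateral libraries, against 30.3 ± 2.75 in sham. Its edgeR estimate was -0.09 on the log2 scale (SE 0.22, adjusted p = 0.943), a direction that turned with the setting and without ipsilateral replicate 1 (0.03). On its coding sequence Glul had 2.84, 4.77, 5.71, 4.01 and 0 tags per 10000 exonic tags in ipsilateral replicates 1 to 5, against 6.46, 7.94, 9.06 and 7.87 in the sham libraries. Every ipsilateral value was below every sham value, a separation downward found in 3.65% of the 192 tested genes with at least 50 coding sequence tags, although the 0 allows up to 10.4. The Glul 3'UTR averaged 26.0 ± 7.54 in ipsilateral and 22.4 ± 3.47 in sham libraries. Glud1, on 78 tags in all, had 0.945, 3.98, 4.08, 4.01 and 0 tags per 10000 exonic tags in ipsilateral replicates 1 to 5, against 2.66, 3.97, 5.66 and 5.25 in the sham libraries. The lowest 2 of these were ipsilateral, 1 of them the shallowest library, and the means of 2.60 ± 1.97 in ipsilateral and 4.38 ± 1.36 in sham libraries did not separate (exact permutation p = 0.222). For Aldoc the log2 fold change was 0.17 (SE 0.36) and for Gja1 0.14 (SE 0.27), with edgeR adjusted p of 0.954 and 0.908; Aldoc averaged 8.69 ± 2.51 in ipsilateral and 7.34 ± 2.40 in sham libraries, and Gja1 15.5 ± 5.73 in ipsilateral and 13.5 ± 2.72 in sham libraries.

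**Figure D3:**
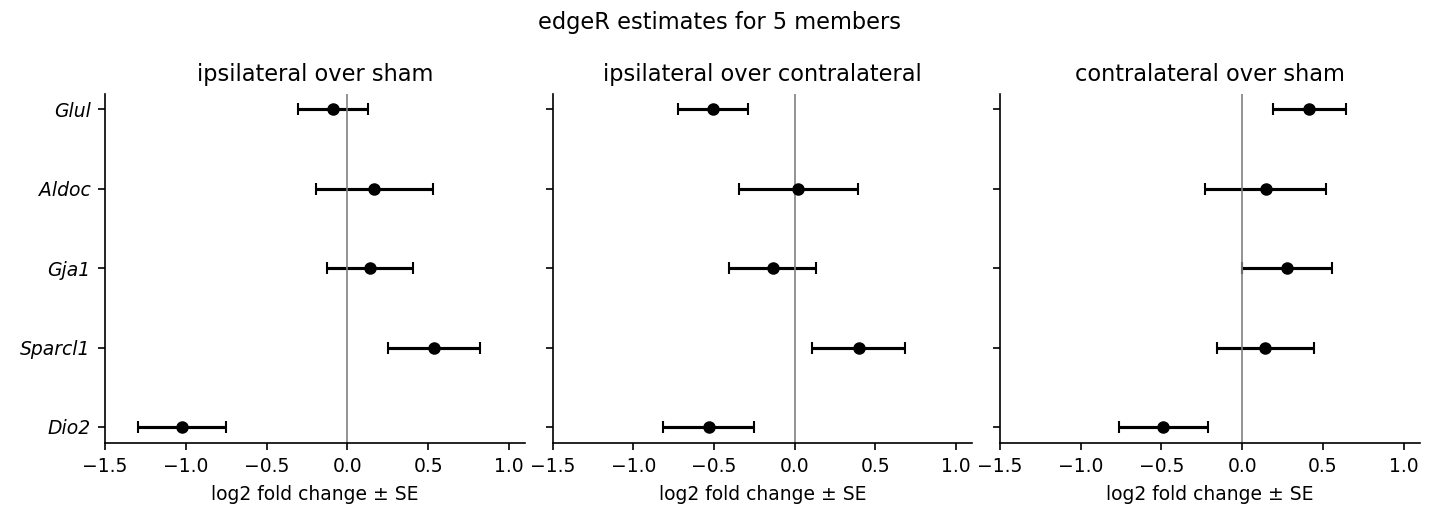
The log2 fold change (horizontal axis, point) with its SE (bar) from edgeR for the 5 members that passed the filter, in ipsilateral over sham, ipsilateral over contralateral and contralateral over sham. Dio2 lies left of 0 in all 3 panels, at -1.02, -0.53 and -0.49, and no point passed the adjusted threshold.

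The Dio2 tags were also summed by region. Of its 28 peaks 22 had a lower pooled ipsilateral share (78.6%; 50.7% of all exonic peaks). These peaks make up the gene sum given above and 12 of them overlap another, so the count describes the same tags and adds no separate support. In the first 1620 bases of the 3'UTR, after the stop codon, there were 2.84, 2.78, 3.67, 4.01 and 6.97 tags per 10000 exonic tags in ipsilateral replicates 1 to 5, against 13.3, 7.28, 9.06 and 12.6 in the sham libraries. The highest ipsilateral value, 6.97, rested on 2 tags and lay just under the lowest sham value, 7.28; the stretch had 26 ipsilateral and 78 sham tags in all. The same stretch was not computed for other genes, so no share of genes stands beside it. The most covered Dio2 peak lies in this stretch, with its middle 50 bases after the stop codon (chr12:90729322-90729401), and had 6 ipsilateral, 9 contralateral and 21 sham tags. The peak over the stop codon itself (chr12:90729371-90729450) had 3 ipsilateral, 8 contralateral and 17 sham tags. The pair overlap, and neither held a match to the families searched. In the last 1620 bases the averages were 4.71 ± 1.67 in ipsilateral and 5.10 ± 4.20 in sham libraries, and the groups overlapped. Coding sequence, which by first label includes the peak over the stop codon, averaged 1.68 ± 1.18 in ipsilateral and 4.39 ± 0.856 in sham libraries. It held 9 ipsilateral and 32 sham tags, and the groups overlapped there too. The division of the 3'UTR was chosen after its values were seen and carries no test. Both peaks with 8-letter matches lay in the middle stretch: the miR-30 peak had 2 ipsilateral, 4 contralateral and 8 sham tags, and the miR-181 peak had 2 ipsilateral, 3 contralateral and 7 sham tags.

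**Figure D4:**
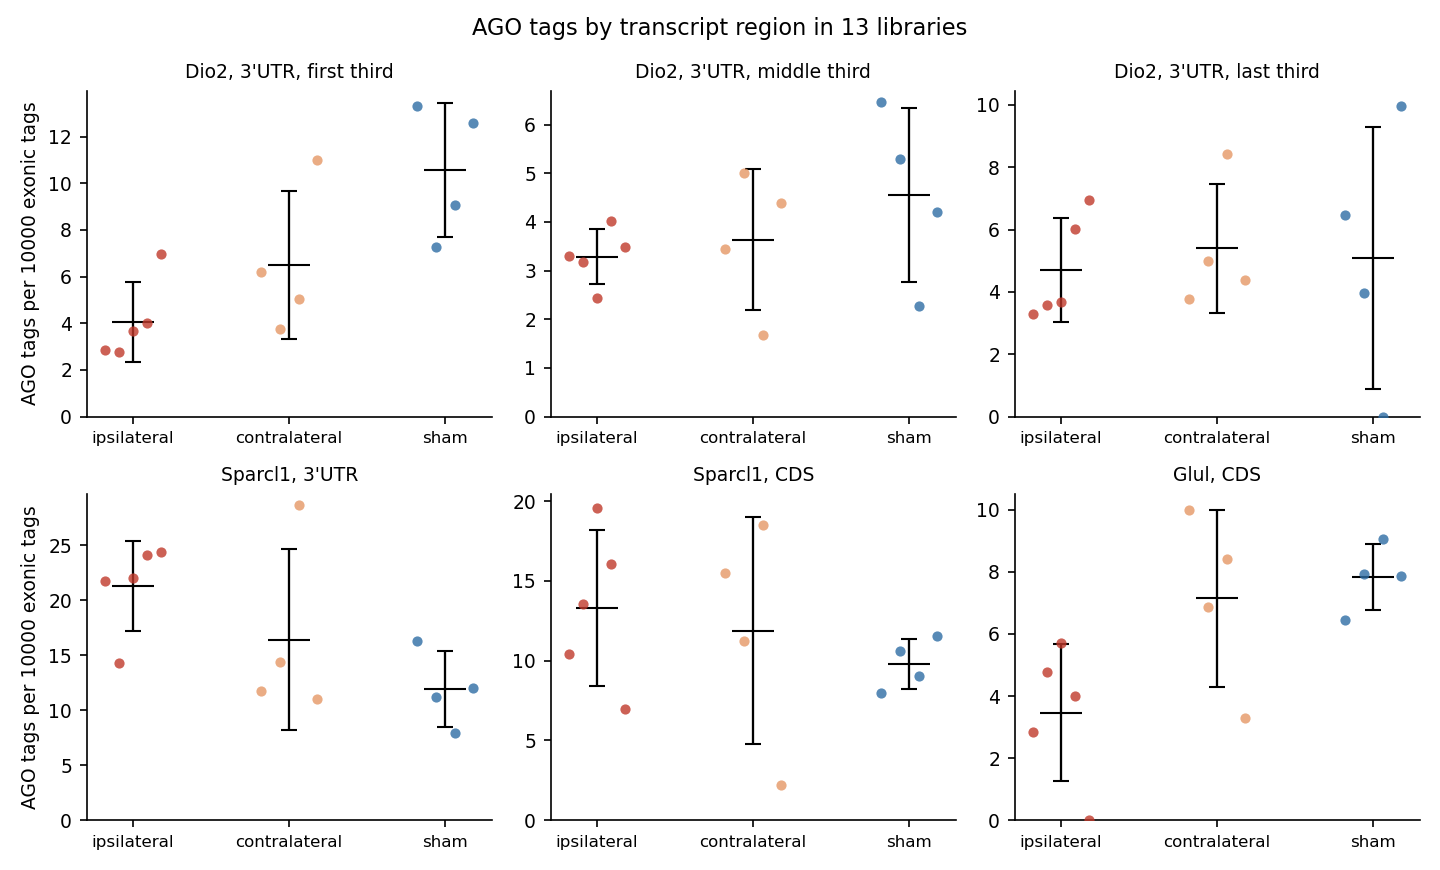
AGO tags per 10000 exonic tags (vertical axis) by transcript region, 1 point per library, with mean ± SD, for Dio2 3'UTR in 3 stretches of 1620 bases, Sparcl1 3'UTR and coding sequence, and Glul coding sequence. In the first Dio2 stretch the highest ipsilateral point, 6.97, lies just under the lowest sham point, 7.28; in Glul coding sequence ipsilateral points lie below sham points, and in the last Dio2 stretch the groups overlap.

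Compared with the contralateral hemisphere, the ipsilateral hemisphere gave its lowest p among the members for Glul, with a fitted level 0.704 times that of the contralateral side. The Glul share was 15.6, 32.2, 33.9, 34.1 and 31.3 tags per 10000 exonic tags in ipsilateral replicates 1 to 5, against 41.0, 32.5, 52.2 and 38.4 in contralateral replicates 1, 2, 4 and 5. Of the contralateral libraries 3 lay above every ipsilateral library, and replicate 2 lay among the ipsilateral ones. The edgeR log2 fold change was -0.51 (SE 0.22, unadjusted p = 0.0321, adjusted p = 0.340), and the exact permutation p was 0.0476 (adjusted 0.432). None of 444 genes was called by edgeR in this comparison (0%; 54 had an unadjusted p under 0.05; DESeq2 called 4, or 0.901%, no member among them), so 0 of 5 tested members were. Exonic shares separated these groups without overlap in 0.676% of genes upward and 2.7% downward, and in no member. Without ipsilateral replicate 1 the Glul log2 fold change was -0.34 (edgeR adjusted p = 0.331). Dio2 averaged 13.7 ± 4.69 in ipsilateral and 18.2 ± 2.81 in contralateral libraries (log2 fold change -0.53, SE 0.28, edgeR adjusted p = 0.404). Sparcl1 averaged 38.0 ± 7.60 in ipsilateral and 29.6 ± 13.9 in contralateral libraries (log2 fold change 0.40, SE 0.29, edgeR adjusted p = 0.523), with contralateral libraries from 13.2 to 47.2. Glud1 averaged 2.60 ± 1.97 in ipsilateral and 4.63 ± 0.938 in contralateral libraries (exact permutation p = 0.111), where the values were 3.44, 5.63, 5.05 and 4.39. Gja1 and Aldoc had log2 fold changes of -0.14 (SE 0.27) and 0.02 (SE 0.37).

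Compared with sham cortex, the contralateral hemisphere had Glul values of 41.0, 32.5, 52.2 and 38.4 tags per 10000 exonic tags, against 31.2, 29.1, 27.2 and 33.6 in sham replicates 1, 2, 3 and 5. Of the 4 contralateral values 3 lay above the whole sham range. The edgeR log2 fold change of 0.42 (SE 0.22) had an adjusted p of 0.998, and the exact permutation p of 0.0571 compares with a smallest possible 0.0286. No gene was called (0% of 444; 9 with an unadjusted p under 0.05 and 0 by DESeq2), members included. Shares separated without overlap in 1.8% of genes upward and 0.676% downward, and in no member. Dio2 averaged 18.2 ± 2.81 in contralateral libraries, against 24.6 ± 8.41 in sham, an edgeR estimate of -0.49 on the log2 scale (SE 0.27, adjusted p = 0.998). Its contralateral values, 15.6 at the lowest, lay inside the sham range of 14.7 to 32.0. On its peaks classed as coding sequence the contralateral values, 3.10, 1.88, 3.37 and 2.20, were all below the sham values, 4.94, 3.97, 3.40 and 5.25, a separation found in 1.56% of the 192 genes. These values rested on 16 contralateral and 32 sham tags, of which 8 and 17 lay in the peak over the stop codon, which reaches into the 3'UTR. The closest pair, 3.37 and 3.40, rested on 2 and 3 tags. The log2 fold changes of Gja1, Sparcl1 and Aldoc were 0.28 (SE 0.28), 0.14 (SE 0.30) and 0.15 (SE 0.38). The 3 comparisons share libraries in pairs, so their values are not independent of each other.

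Within preparation sets, libraries of the same replicate number are compared. Dio2 was lower in ipsilateral than in sham in 4 of 4 sets (differences of -21.2 to -3.30 tags per 10000). It was lower in ipsilateral than in contralateral in 4 of 4 (-6.60 to -1.07). In contralateral it was lower than in sham in 3 of 3 (-14.6 to -4.87). Sparcl1 and Gja1 were higher in ipsilateral than in sham in 4 of 4 sets, while Glul and Aldoc were higher in 2 of 4 and Glud1 in 1 of 4. Gja1 was also higher in contralateral than in sham in 3 of 3, the smallest gap being 0.214. Glul was lower in ipsilateral than in contralateral in 4 of 4 sets, the smallest gap being 0.308, and higher in contralateral than in sham in 3 of 3. Glud1 was lower in ipsilateral than in contralateral in 4 of 4 sets. In replicate 5, however, ipsilateral Glud1 had 0 tags, which allows up to 10.4 and so reaches above the contralateral value. Sets were not counted for other genes, so no share of genes stands beside these counts. With 4 sets an exact sign test cannot pass a two-sided threshold of 0.05. With the replicate number as a block in edgeR no member was called, Dio2 against sham included (log2 fold change -0.96, SE 0.26, adjusted p = 0.0876).

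**Figure D5:**
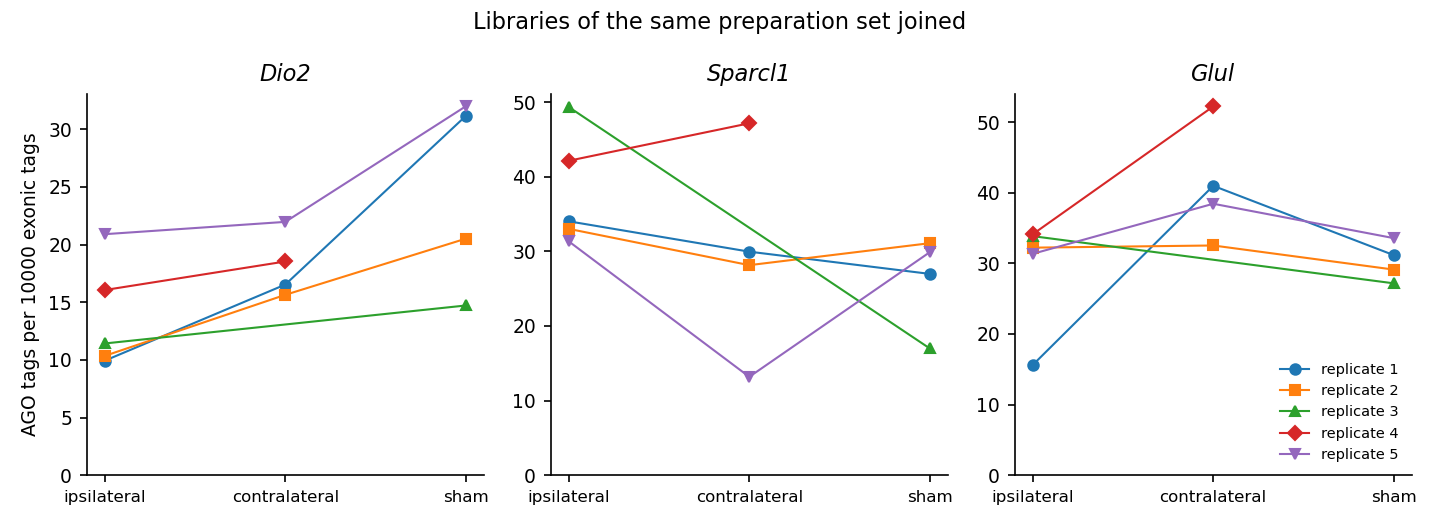
Dio2, Sparcl1 and Glul tags per 10000 exonic tags (vertical axis) in ipsilateral, contralateral and sham libraries, with lines joining libraries of 1 replicate number; replicate 3 has no contralateral and replicate 4 no sham library. Every Dio2 line climbs from left to right, and in every set with both libraries Glul is lower in ipsilateral than in contralateral tissue.

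Only 3 member peaks were deep enough to be tested singly among 238 peaks, and none was called by edgeR in any comparison (0% of peaks each time; 5 peaks had an unadjusted p under 0.05 in ipsilateral against sham, 6 in ipsilateral against contralateral and 1 in contralateral against sham). DESeq2 called 0.42% (1 peak, no member) in ipsilateral against contralateral. The SEs of the member peaks, near 1 on the log2 scale, exceeded every estimate but 1. The Sparcl1 peak with the miR-221 match had a log2 fold change of 0.56 (SE 1.00) in ipsilateral over sham and 1.13 (SE 1.06) in contralateral over sham. The main Glul 3'UTR peak had 0.23 (SE 0.95) in ipsilateral over sham.

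Across the 13 libraries, Spearman's rho of the exonic share between members that passed the filter ran from -0.46 (Dio2 and Sparcl1) to 0.37 (Aldoc and Sparcl1). The most similar genes among those tested were Tsc22d1 for Glul (rho 0.77), Vamp2 for Aldoc (0.84), Abi2 for Gja1 (0.75), Trim9 for Sparcl1 (0.81) and Anks1b for Dio2 (0.73). The next for Dio2 were Qk (0.67) and Ank3 (0.66). These are the highest values among all genes tested, over libraries that share a denominator, so they are descriptions with no p.

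Other genes of the same pathways gave no call. Among 33 genes of glutamate metabolism and transport other than the members, 18 had exonic tags, 4 were tested and 0 passed in any comparison by edgeR; their median log2 fold change in ipsilateral over sham was 0.28, against 0.02 over all 444 genes. The 4 were the glial transporter Slc1a2, the aspartate aminotransferase Got1, the vesicular transporter Slc17a7 and the glutamate decarboxylase Gad1. Of the 30 astrocyte symbols 4 were tested and 0 passed (median 0.02). In thyroid hormone handling 5 of 15 genes had tags, 3 were tested and 0 passed (median -0.07), and Dio3 and Slco1c1 had 0 tags. Of the SPARC family relatives 5 of 7 had tags, 2 were tested and 0 passed. Of 11 connexins and partners 2 had tags and the 1 tested, Tjp1, did not pass; of 17 glycolytic genes 10 had tags and 0 could be tested.

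The summed oligodendrocyte list (7 of 15 genes with tags, Mog and Mag at 0) was 62.9 to 80.3 tags per 10000 exonic tags in ipsilateral, 77.6 to 122 in contralateral and 81.7 to 92.6 in sham libraries. Every ipsilateral library thus lay below every sham library, but narrowly, the closest values being 80.3 in ipsilateral and 81.7 in sham libraries. All other lists summed here overlapped between these groups. How often other sums of genes separate in this way was not computed, so no share stands beside the separation. Of its 7 genes with tags 4 were tested and 0 passed (median log2 fold change in ipsilateral over sham -0.41), and Qk gave 746 of its 1665 tags. Its part in the Dio2 difference was not tested. The neuron list ranged from 194 to 377 in ipsilateral, 315 to 377 in contralateral and 310 to 367 in sham libraries, and the astrocyte list without the members from 197 to 305 in ipsilateral, 251 to 414 in contralateral and 252 to 307 in sham libraries. Both lists were lowest in ipsilateral replicate 1, the library with the low Glul value. Slc1a2 alone gave 4595 of the 5877 tags of the astrocyte list, so its sum mostly follows that gene. Microglia (1 of 15 genes), vascular (2 of 15) and blood (1 of 7) lists had 24, 27 and 23 tags in all, with Cx3cr1, Cldn5 and Hba-a1 at 0.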

How the data were processed

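Tags were analysed in 13 AGO CLIP libraries, cloned by bromodeoxyuridine capture per the labels' protocols. The authors deposited raw counts, whole numbers of tags per AGO peak and per mature miRNA; per the submitters' processing notes reads were aligned to mm10 with Novoalign. No source used here names the peak caller, the strand or any collapsing of duplicates; peaks carry 1 height and p for all libraries. If duplicates were kept, tags are not independent molecules, and limits of a 0 (3 tags) cover counting error only. Every peak has at least 3 tags. Peak starts were read as 0-based. Of the table, 1 peak without a position (44 tags) was left out.

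Peaks were classed by their first region label, and tags summed over the exonic peaks of each of 3417 genes (12122 peaks). All 13 libraries entered 1 edgeR 4.0.16 quasi-likelihood fit (R 4.3.3) with TMM factors and filterByExpr, which kept 444 genes (64.1% of exonic tags; biological coefficient of variation 0.366) and, for single peaks, 238 (0.901); tests were two-sided with Benjamini-Hochberg adjustment, called under 0.05, and the code was tested on simulated data. DESeq2 1.42.0 was an alternative. Shares are tags per 10000 exonic tags, with exact permutation tests over libraries in scipy 1.17.1. Seed matches of 40 of 44 listed families were sought in 11075 peaks with at least 50 bases of transcript; for miR-124-3p, miR-143-3p, miR-145a-5p and miR-185-5p no sequence was used. The named genes are the 6 members, up to 5 peaks of each and the 3 genes most alike. Members and lists were chosen with earlier results of these data known. The labels tie replicate numbers to days of surgery; same-numbered libraries deviated together with a median correlation of 0.244 (-0.00968 to 0.541, 11 pairs), other pairs -0.0729 (45 pairs). Animals per library are not given, so p-values measure the spread between libraries.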

Additional observations from a re-analysis of the deposited data

Results flagged for a closer look

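Glul in ipsilateral replicate 1 had 15.6 tags per 10000 exonic tags, where the other 4 ipsilateral libraries had 31.3 to 34.1; the gap to the nearest library was 0.851 of the whole range of the group, above the limit for 5 values. Of 18 sets of values (6 genes in 3 groups) this was the 1 that passed, and chance passes about 1 set in 20. In the same library 67.1% of peak tags lay in introns or between genes, Hspa1b had 0 tags and the summed neuron list was at 194. Sham replicate 1 (62.9%) and contralateral replicate 1 (55.9%) had high shares in introns or between genes too, and 0 Hspa1b tags. No sham Glul value was below 27.2 and no contralateral one below 32.5. The part of the intron share, the missing Hspa1b tags and the neuron list in the low Glul value was not tested. Without this library the Glul log2 fold change was 0.03 in ipsilateral over sham and -0.34 in ipsilateral over contralateral (edgeR), against -0.09 and -0.51 with it.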

How the results depend on the processing

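Depth limited most values: the median member peak had 17 tags over 13 libraries, and Glud1 (78 tags) did not pass edgeR's filter. No member was called in any of the 11 alternative fits that change another choice than leaving out a single library. With 1 library left out 0 to 1 members were called in ipsilateral against sham (Dio2, without ipsilateral replicate 1). Genes called in ipsilateral against sham, 1 as reported, were 2 with DESeq2, 2 with no filter, 2 without replicate number 1 and 0 with all peaks summed or with overlapping peaks dropped (an alternative chosen after seeing the data), and 0 to 10 with 1 library left out. In ipsilateral against contralateral, 0 as reported, they were 4 with DESeq2, 1 with all peak tags as library size, 2 with no filter, 1 with the replicate block and 5 without replicate number 1, and 0 to 10 with 1 library left out; both counts of 10 were without ipsilateral replicate 1. The call in ipsilateral against sham was lost without any 1 of ipsilateral replicates 2 to 5, contralateral replicates 4 and 5 or the sham libraries. Peaks called in ipsilateral against contralateral, 0 as reported, were 1 with DESeq2 and 0 to 1 with 1 library left out. Seed matches lay under 8 member peaks when only 8-letter sites were kept, in place of 33.

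Directions that turned were all of small log2 fold changes far from the threshold. Glul in ipsilateral over sham was 0.18 with all peak tags as library size, 0.0024 in 3'UTR peaks and 0.0432 without replicate number 1, and its share differed by 2.75 per 10000 peak tags and 1.92 per 10000 3'UTR tags. Aldoc was -0.23 in ipsilateral over sham without replicate number 1, and in ipsilateral over contralateral -0.0415 with all peak tags, -0.30 without replicate number 1 and -0.0479 with overlapping peaks dropped. With the replicate block Sparcl1 in contralateral over sham was -0.0455; the block changed no other direction and no member's call. With 1 library left out, ipsilateral over sham ran from -0.18 to 0.0261 for Glul, -0.0501 to 0.35 for Aldoc and -0.0263 to 0.26 for Gja1; Aldoc ran from -0.15 to 0.27 over contralateral, and contralateral over sham from -0.14 to 0.32 for Aldoc and -0.12 to 0.34 for Sparcl1. The causes were not tested. Of 162 log2 fold changes in other fits 154 kept their direction and side of the threshold.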
